A study of Homo sapiens with 18 samples.

Results

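The leukaemia lines OCI-AML3 and OCI-AML2, labelled AML3 and AML2, were compared while both were treated with the bromodomain inhibitor JQ1. The members of the comparison are the columns of the count tables that carry a line's name together with JQ1, that is 3 AML3 JQ1 and 3 AML2 JQ1 libraries, 6 of the 18 in the series. The other 12 libraries are the same lines with OTX015 (birabresib, a related inhibitor) and with vehicle (DMSO), again 3 libraries for each line and treatment. All were made from cultured myeloid leukaemia cells, and the labels give no genotype, dose, treatment time or culture of origin. Each line stands for 1 patient's leukaemia, so an effect of a known mutation and any other difference between the lines cannot be told apart. The question set by the choice of libraries is which differences between the lines are still present, or appear, when both receive JQ1.

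BET proteins read acetylated lysines on histones through their bromodomains and bring elongation factors to promoters and enhancers, and JQ1 occupies the bromodomain pocket. OCI-AML3 carries the NPM1 mutation that shifts nucleophosmin out of the nucleolus into the cytoplasm, and leukaemias of this kind are known for active HOX genes. OCI-AML2 lacks that mutation. Transcription was read by CAGE, cap analysis of gene expression, which sequences a tag at the cap of each RNA, so that tags mark where transcription starts and how much RNA starts there.

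AML3 JQ1 libraries held 378794 to 1024704 gene tags and AML2 JQ1 libraries 570101 to 1290954. The libraries numbered 3 were the shallowest of both groups and lay apart from the other two of their group on the principal components, and AML3 JQ1 replicate 3 had the largest TMM scaling factor of the 6 (1.49). MALAT1, a nuclear long non-coding RNA, made up 5.35% to 6.29% of the AML3 JQ1 gene tags and 1.41% to 2.02% of the AML2 JQ1 gene tags. Its part in the differences below was not tested. Of 10 myeloid markers, 7 were tested and all 7 had tags in both lines, with the leukocyte phosphatase PTPRC at 78.3 CPM in AML3 and 195 CPM in AML2 on average, where CPM are tags per 1000000 of the TMM-scaled library. Summed markers of T and B cells reached at most 0 CPM in AML3 JQ1 and 1.14 CPM in AML2 JQ1 libraries, of megakaryocytes 0 and 3.53 CPM, and of fibroblasts and epithelia 5.28 and 0 CPM. These sums rest on the markers analysed here, 1 of 7 for T and B cells, 2 of 4 for megakaryocytes and 1 of 6 for fibroblasts and epithelia. No erythroid marker was analysed here. NPM1 itself averaged 773 ± 303 CPM in AML3 and 1190 ± 96.6 CPM in AML2 with JQ1 (SD, n = 3), which did not pass the test (log2 difference −0.62 ± 0.36 SE, adjusted p = 0.178).

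With JQ1, AML3 was above AML2 at 2017 genes (20.1% of the 10031 tested) and below it at 1728 (17.2%), together 37.3%, where a call is an adjusted p under 0.05. Counts in the gene lists below are to be read against these shares. With vehicle the share was 23.0%, with 1139 genes higher and 1169 lower in AML3. The median difference over all tested genes was 0.03 on the log2 scale. Of the genes that differed with JQ1, 3521 (94.0%) had no overlap between the 3 AML3 and the 3 AML2 libraries, against 47.8% of all tested genes. Calls and overlap came from the same 6 libraries, so the higher share is no added support for the calls. Of the JQ1 differences, 1363 were also present with vehicle in the same direction and are called retained (708 higher and 655 lower in AML3, 13.6% of tested genes). They made up 36.4% of the genes that differed with JQ1 and 59.1% of those that differed with vehicle. The retained differences had a median size of 1.91 with JQ1 and 1.59 with vehicle on the log2 scale (1.88 and 1.56 with genes at 0 tags set to their bound). The change in size itself passed the test for 74 of them, 64 wider and 10 narrower with JQ1. Genes with 0 tags in 1 line in both conditions could not pass this test, whatever the other line did. HOXB3 is such a gene, with no tag in AML2 and means of 15.1 CPM with vehicle and 194 CPM with JQ1 in AML3.

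The line difference with JQ1 minus that with vehicle passed the test at 6.94% of tested genes (3.02% positive and 3.92% negative). Of these, 402 genes differed with JQ1 and not with vehicle and are called new (178 higher and 224 lower in AML3, 4.01% of tested genes). Another 147 were the opposite case, different with vehicle and not with JQ1, and are called lost (1.47%). A set of 61 passed in opposite directions in the 2 conditions and are called reversed (0.608%), and this became 94 when the replicate number entered the model as a block. For 1919 genes that passed with JQ1 and not with vehicle the change in the difference did not pass, and they are not counted as new. The count of new genes was 259 without AML2 JQ1 replicate 1 and 247 without AML2 JQ1 replicate 2. With replicates 1 and 2 of every group alone it was 661, with 269 lost and 121 reversed. The labels do not say that replicates came from separate cultures, so p-values measure the spread between these libraries. In bulk RNA, fewer cells of a kind and less RNA per cell cannot be told apart.

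**Figure D1:**
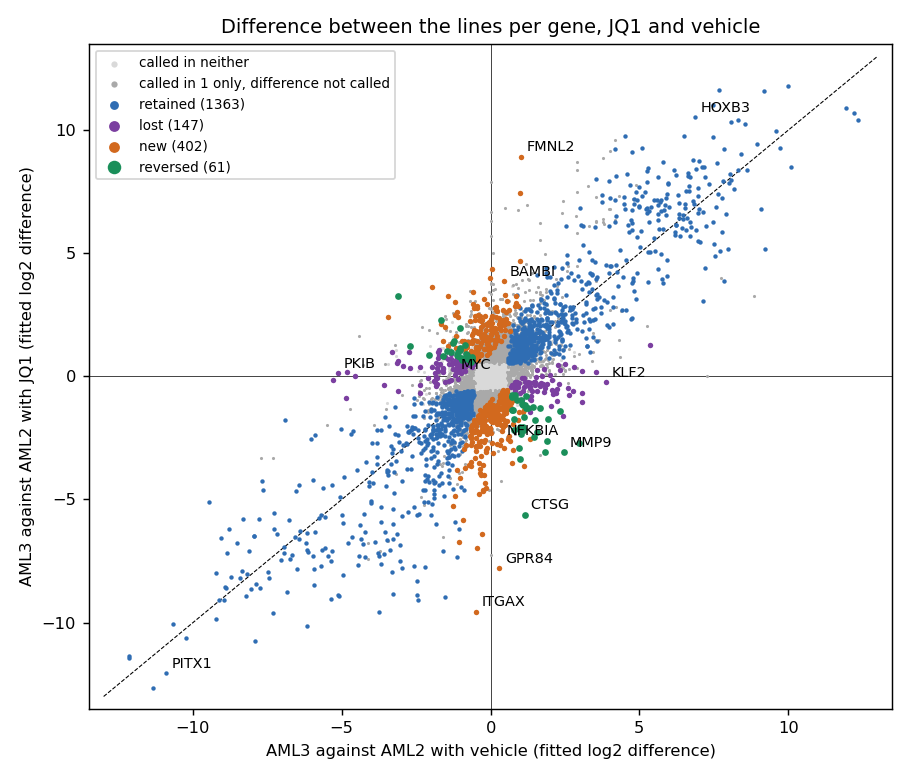
Each point is 1 of 10031 tested genes, with the fitted log2 difference AML3 against AML2 with vehicle on the x axis and with JQ1 on the y axis; the dashed line marks equal differences. Retained genes lie along the diagonal at both ends, new genes such as ITGAX and FMNL2 near x = 0, lost genes such as KLF2 near y = 0 and reversed genes such as CTSG where the signs of the axes are opposite.

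The largest retained differences were of the on and off kind. HOXB-AS3, a non-coding RNA of the HOXB cluster (GRCh38 chromosome 17, 48549630 to 48606414, plus strand), had 496, 516 and 370 CPM in AML3 JQ1 libraries and 0 tags in each AML2 JQ1 library. AML3 was at least 409-fold higher, with 0 tags set to a floor of 3 over the group (adjusted p = 1.68e-11). With vehicle the same RNA averaged 135 ± 32.1 CPM in AML3 and 0 in AML2. UNCX, a homeodomain transcription factor of the developing spine and kidney (chromosome 7, 1232907 to 1237318, plus strand), had 425, 401 and 372 CPM in AML3 JQ1 libraries and no tag in AML2 (at least 348-fold, adjusted p = 3.05e-12). H1F0, the linker histone of non-dividing cells, had 501, 450 and 285 CPM in AML3 and none in AML2 (at least 376-fold, adjusted p = 2.3e-11). BAHCC1, a chromatin protein that binds a repressive histone mark, had 253, 212 and 345 CPM in AML3 and none in AML2 (at least 222-fold). The same pattern held for the histone gene HIST3H2A (at least 231-fold) and for TIMP3, an inhibitor of matrix metalloproteinases (at least 168-fold).

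In the other direction, PITX1, a homeodomain factor of hind limb and pituitary development (chromosome 5, 135027735 to 135034813, minus strand), had no tag in AML3 JQ1 libraries and 570, 624 and 475 CPM in AML2 JQ1 libraries. AML3 was at least 501-fold lower (adjusted p = 3.17e-12). CD69, an early activation receptor of leukocytes, had no tag in AML3 and 221, 220 and 240 CPM in AML2 (at least 197-fold lower). SNURF, an imprinted gene that shares its transcript with SNRPN, had no tag in AML3 and 227, 233 and 153 CPM in AML2 (at least 187-fold lower). Among histone genes, HIST1H2BB had no tag in AML3 (at least 327-fold lower), and HIST1H3C had 1 tag in the 3 AML3 libraries and 3280 ± 498 CPM in AML2 (SD, n = 3). The ratio for HIST1H3C, AML2 to AML3, was 8660 with a 95% counting interval of 1550 to 342000. Histone genes have near-identical copies between which tags can be split, so the values of single members are uncertain.

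The promoters of 4 of these on and off genes, taken by level among those with a usable RefSeq entry, are shown because tags of the gene came from only 1 of the lines with JQ1. Sequences are RefSeq, GRCh38.p14, from 250 bases before to 50 bases after the annotated start, 5′ to 3′ on the gene's strand, and H1F0 and HIST1H2BB had no entry under these symbols. Each window belongs to the start in RefSeq, and the tags counted for a gene may begin elsewhere. The HOXB-AS3 and PITX1 windows lie inside the annotated spans of their genes and not at the edges. Capitals mark matches to CCAAT, a common promoter element, on either strand.
PITX1: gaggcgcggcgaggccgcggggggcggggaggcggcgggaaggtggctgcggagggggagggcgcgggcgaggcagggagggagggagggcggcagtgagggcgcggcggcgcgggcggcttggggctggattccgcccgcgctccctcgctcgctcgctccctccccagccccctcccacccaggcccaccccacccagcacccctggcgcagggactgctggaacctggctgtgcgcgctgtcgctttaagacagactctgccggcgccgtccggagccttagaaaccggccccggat
HOXB-AS3: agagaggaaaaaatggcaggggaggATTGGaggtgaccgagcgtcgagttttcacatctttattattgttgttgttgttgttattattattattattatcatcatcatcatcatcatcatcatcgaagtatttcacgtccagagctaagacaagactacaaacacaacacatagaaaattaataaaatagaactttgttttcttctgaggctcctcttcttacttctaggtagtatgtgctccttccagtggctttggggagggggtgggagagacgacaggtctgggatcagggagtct
UNCX: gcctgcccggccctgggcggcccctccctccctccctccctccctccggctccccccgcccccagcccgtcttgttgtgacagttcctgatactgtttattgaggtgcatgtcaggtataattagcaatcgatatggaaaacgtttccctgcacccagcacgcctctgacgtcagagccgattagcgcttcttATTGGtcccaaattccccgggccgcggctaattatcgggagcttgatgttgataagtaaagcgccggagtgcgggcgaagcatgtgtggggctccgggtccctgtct
BAHCC1: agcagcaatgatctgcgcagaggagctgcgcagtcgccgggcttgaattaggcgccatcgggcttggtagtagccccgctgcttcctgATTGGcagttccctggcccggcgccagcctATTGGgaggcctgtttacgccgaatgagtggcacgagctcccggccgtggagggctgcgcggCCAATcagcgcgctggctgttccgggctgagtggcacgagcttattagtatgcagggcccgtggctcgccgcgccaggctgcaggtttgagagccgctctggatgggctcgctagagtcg
They lie at chr5:135034179-135034478 (minus), chr17:48595708-48596007 (plus), chr7:1232622-1232921 (plus) and chr17:81395207-81395506 (plus). The PITX1 window is 77.0% G and C and the HOXB-AS3 window 40.7%, against a median of 58.7% over 35116 human promoters of this length. CCAAT occurred 3 times in the BAHCC1 window, 162, 132 and 70 bases before the start, and 1 time each in those of UNCX and HOXB-AS3. It is present in 34.6% of promoter windows of this length. TATAAA, searched on both strands, was in none of these 4 windows and in 11.5% of all promoters.

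HOX genes, which set positional identity in the embryo and stay active in many myeloid leukaemias, differed between the lines in both directions. Of 14 tested HOX, MEIS and PBX genes, 6 were higher and 5 lower in AML3 with JQ1. Higher in AML3 were HOXB3 and HOXB2, with HOXB3 at 170, 196 and 216 CPM in AML3 JQ1 libraries and no tag in AML2 (at least 162-fold, adjusted p = 4.89e-12). HOXB3 lies on the strand opposite to HOXB-AS3 and overlaps it. Promoters were named with their strand, and how tags were assigned to genes was not given. HOXA13, at the far end of the HOXA cluster, was likewise present in AML3 alone (170, 162 and 211 CPM, at least 151-fold), and HOXA10 was higher in AML3 by 2.08 ± 0.34 on the log2 scale. MEIS3, a HOX cofactor, had 24.9, 22.2 and 23.4 CPM in AML3 and none in AML2.
Lower in AML3 were HOXA7 (0.593 against 100 CPM, AML2-to-AML3 ratio 134 with an interval of 36.7 to 1110), HOXA5 and MEIS2 (no tag in AML3), PBX3 and MEIS1. MEIS1, the cofactor that accompanies HOXA9 in leukaemia, had 36.5, 41.2 and 50.5 CPM in AML3 and 89, 101 and 88.2 CPM in AML2 (−1.15 ± 0.21, adjusted p = 0.000102). HOXA9 itself, at 471, 368 and 285 CPM in AML3 and 358, 358 and 258 CPM in AML2, overlapped between the lines and did not pass (0.21 ± 0.25, adjusted p = 0.547).

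Cell cycle genes were mostly lower in AML3 under JQ1. Of 31 tested S phase genes, 23 were lower and 0 higher in AML3 with JQ1, against 2 lower and 0 higher with vehicle, and 17.2% of all tested genes were lower with JQ1. The median log2 difference of the list was −1.14 with JQ1 and −0.25 with vehicle. Of 29 mitosis genes, 24 were lower and 0 higher with JQ1 and 3 lower and 0 higher with vehicle, with medians of −1.15 and −0.26. By the definition above, 10 S phase genes and 6 mitosis genes were new.
RRM2, the regulated subunit of ribonucleotide reductase, had 72, 75 and 75.8 CPM in AML3 JQ1 libraries and 506, 344 and 427 CPM in AML2 JQ1 libraries. RRM2 was lower in AML3 (−2.52 ± 0.27, adjusted p = 3.69e-08). With vehicle RRM2 averaged 126 ± 26.9 CPM in AML3 and 197 ± 48.6 CPM in AML2, which did not pass (adjusted p = 0.0653). MCM3, a subunit of the replicative helicase, had 32, 24.3 and 30.7 CPM in AML3 and 140, 164 and 111 CPM in AML2 (−2.27 ± 0.25), and the other helicase genes MCM2, MCM4, MCM5 and MCM6 were lower as well. MCM7, which encodes a subunit of the same ring, was not (75.0 against 77.5 CPM on average, adjusted p = 0.891).
In the mitosis list, the cyclin gene CCNA2 had 12.4, 12.7 and 27.1 CPM in AML3 and 53.6, 51.1 and 63.5 CPM in AML2 (−1.78 ± 0.29, adjusted p = 2.92e-05). The centromeric histone gene CENPA was lower (−1.62 ± 0.28), as were the topoisomerase gene TOP2A (−1.38 ± 0.27) and the proliferation marker MKI67 (−1.02 ± 0.29). The change in the line difference for CCNA2 and CENPA did not pass without AML3 JQ1 replicate 1 or without replicate 2, and that for CENPA also not without AML2 JQ1 replicate 1 or 2.

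Of 50 tested replication-dependent histone genes, 37 were lower and 7 higher in AML3 with JQ1, against 4 lower and 8 higher with vehicle, and the median log2 difference was −1.62 with JQ1 and −0.46 with vehicle. HIST1H2BK had 1320, 1080 and 664 CPM in AML3 and 4000, 4450 and 2840 CPM in AML2 (−1.88 ± 0.41, adjusted p = 0.000716). The genes that were higher in AML3 included HIST1H3F (1790, 1630 and 978 CPM against 164, 152 and 148 CPM) and HIST1H4F, both retained. HIST1H2BL was the new member. Of 38 MYC targets and nucleolar genes, 2 were higher and 5 lower in AML3 with JQ1, against 20.1% and 17.2% of all tested genes. With vehicle 1 was higher and 11 were lower. In that list the polyamine enzyme gene ODC1 stayed lower in AML3 (−1.28 ± 0.27 with JQ1 and −1.10 with vehicle), and the pseudouridine synthase gene PUS7 stayed higher.

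**Figure D2:**
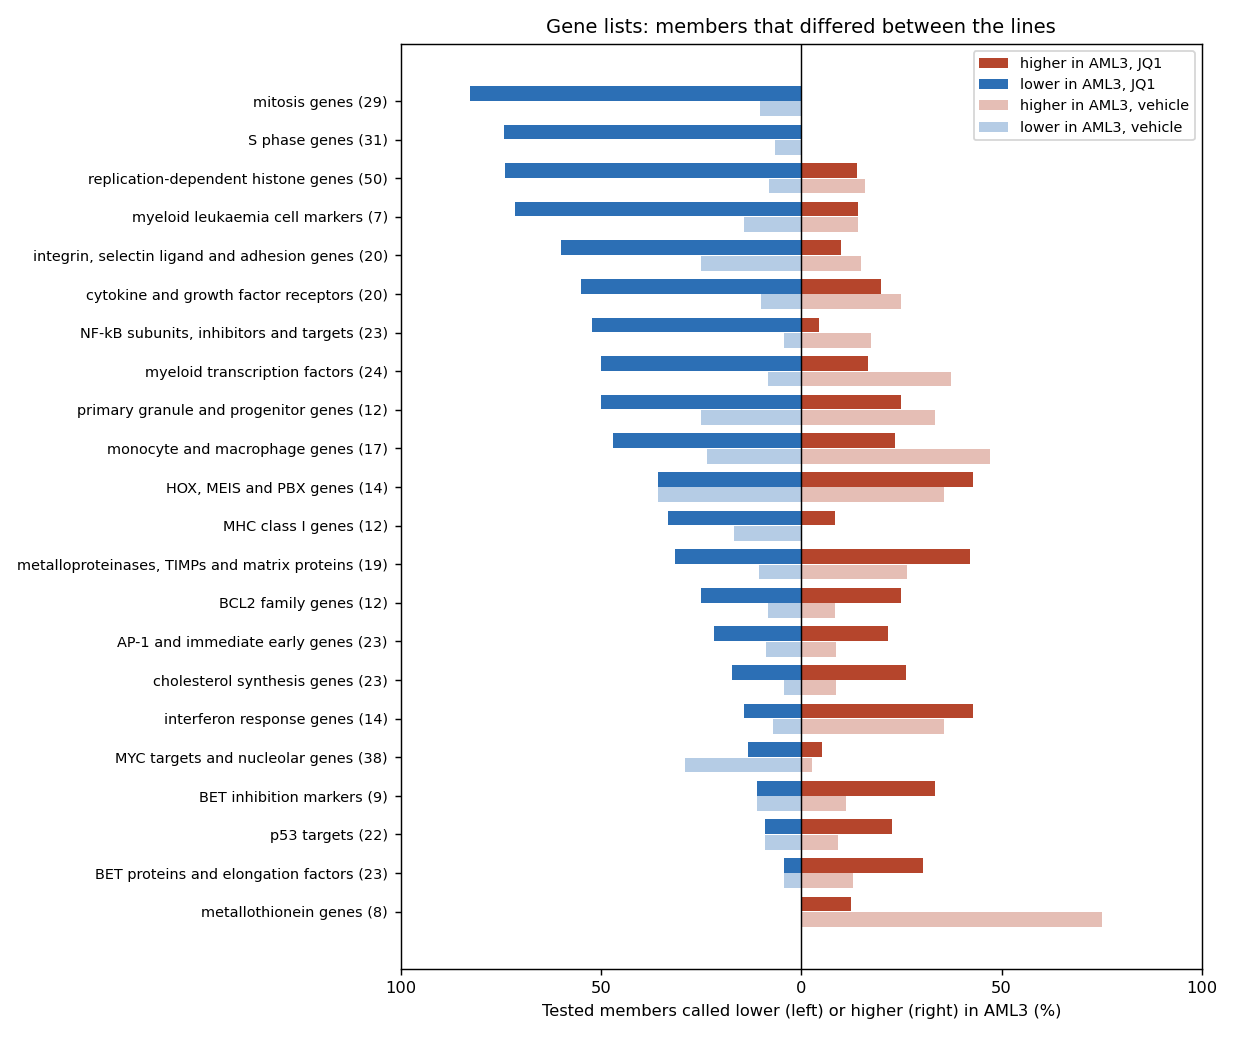
Bars give, for each gene list with at least 5 tested members (number in parentheses), the percentage of tested members higher in AML3 (right) or lower in AML3 (left), with JQ1 (dark, above) and with vehicle (pale, below). The dark left bars are longest for mitosis genes (24 of 29), S phase genes (23 of 31) and histone genes (37 of 50), while the pale bar of metallothionein genes reaches 6 of 8 on the right.

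NF-κB genes were also mostly lower in AML3 under JQ1. NF-κB dimers are held by inhibitors of the IκB family and, when released, activate inflammatory genes and the genes of their own inhibitors. Of 23 tested subunits, inhibitors and targets, 12 were lower and 1 higher in AML3 with JQ1, against 1 lower and 4 higher with vehicle, with medians of −0.98 and 0.06. The subunit genes NFKB2 (7.85 against 47.3 CPM) and RELB (4.15 against 31.7 CPM) were new in the lower direction, and NFKB1 was lower (−1.03), while RELA and REL did not pass.
NFKBIA, which encodes IκBα, had 51.6, 45.4 and 90.2 CPM in AML3 JQ1 libraries and 357, 337 and 411 CPM in AML2 JQ1 libraries. NFKBIA was lower in AML3 (−2.60 ± 0.27, adjusted p = 2.91e-08). With vehicle it averaged 25.9 ± 5.22 CPM in AML3 and 20.3 ± 7.7 CPM in AML2 and did not pass (adjusted p = 0.475), and the change in the difference was −2.95 (adjusted p = 4.21e-05). TNFAIP3, the ubiquitin editor A20 that dampens NF-κB, had 4.45, 4.23 and 3.61 CPM in AML3 and 71.9, 88.1 and 104 CPM in AML2 (−4.34 ± 0.30, adjusted p = 1.87e-11). With vehicle TNFAIP3 was lower in AML3 (−1.41). The inhibitor gene NFKBIE was reversed, at −1.74 with JQ1 and 0.80 with vehicle.
Among targets, IL1B, the inflammatory cytokine, had 17.8, 10.6 and 9.02 CPM in AML3 and 59.4, 57.3 and 123 CPM in AML2 (−2.54 ± 0.50), and the adhesion receptor ICAM1 was lower (−3.65 ± 0.50). TRAF1, an adaptor of tumour necrosis factor receptors, was the member that was higher in AML3 (16.5 against 3.61 CPM, 2.12 on the log2 scale). TNF did not pass (474 against 779 CPM, −0.73). TNFRSF1A, a receptor for tumour necrosis factor, was at 52.5, 58.1 and 34.3 CPM in AML3 and 155, 152 and 155 CPM in AML2 (−1.64 ± 0.22).

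The promoters of NFKBIA and TNFAIP3, chosen after their values were seen, are shown because both genes are textbook NF-κB targets whose start regions carry matches to the NF-κB site. Capitals mark matches to the NF-κB consensus (κB) on either strand and, in NFKBIA, a match to TATAAA on the opposite strand.
NFKBIA: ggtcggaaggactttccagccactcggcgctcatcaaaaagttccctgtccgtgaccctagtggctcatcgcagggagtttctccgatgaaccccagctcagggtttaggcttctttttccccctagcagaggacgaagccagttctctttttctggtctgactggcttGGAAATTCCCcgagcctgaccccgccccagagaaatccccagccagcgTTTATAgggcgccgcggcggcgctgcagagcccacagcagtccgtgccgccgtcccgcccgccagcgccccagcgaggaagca
TNFAIP3: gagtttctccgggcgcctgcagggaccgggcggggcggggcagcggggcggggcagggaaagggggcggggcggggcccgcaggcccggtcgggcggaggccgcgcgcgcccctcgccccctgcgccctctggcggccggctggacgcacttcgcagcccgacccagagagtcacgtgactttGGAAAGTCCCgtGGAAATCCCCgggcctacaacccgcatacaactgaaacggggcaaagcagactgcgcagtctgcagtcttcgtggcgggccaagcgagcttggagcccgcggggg
They lie at chr14:35404700-35404999 (minus) and chr6:137867009-137867308 (plus), in the same RefSeq build and window as above. The κB match of NFKBIA begins 81 bases before the start, and those of TNFAIP3 begin 67 and 55 bases before it. A κB match is present in 7.73% of promoter windows of this length. A match describes the letters and does not show that the factor bound there.

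Adhesion and surface receptor genes included the largest new differences. ITGAX, the integrin CD11c of monocytes and dendritic cells (chromosome 16, 31355134 to 31382997, plus strand), had no tag in AML3 JQ1 libraries and 87.9, 111 and 93.5 CPM in AML2 JQ1 libraries. AML3 was at least 86.9-fold lower (adjusted p = 2.56e-11). With vehicle ITGAX averaged 5.37 ± 1.5 CPM in AML3 and 6.84 ± 1.79 CPM in AML2, so the lines had similar low levels that did not differ by the test (adjusted p = 0.433). GPR84, a receptor for medium-chain fatty acids on myeloid cells, had 1.78, 0 and 0 CPM in AML3 and 175, 244 and 164 CPM in AML2. The ratio of AML2 to AML3 was 266 (95% counting interval 73.4 to 2210), and with vehicle the means were 29.2 CPM in AML3 and 25.8 CPM in AML2. CD82, a tetraspanin, had 0.889, 1.06 and 0 CPM in AML3 and 62.8, 70.5 and 98.8 CPM in AML2 (ratio 97.3, interval 26.6 to 809). SELPLG, the ligand by which leukocytes roll on P-selectin, had no tag in AML3 and 13.7, 16.7 and 19.4 CPM in AML2, against 26.9 CPM in AML3 and 37.1 CPM in AML2 with vehicle.
Over the list of 20 integrin, selectin ligand and adhesion genes, 12 were lower and 2 higher in AML3 with JQ1, against 5 lower and 3 higher with vehicle. ITGAL, the chain of LFA-1, had 10.7, 11.6 and 3.61 CPM in AML3 and 105, 104 and 104 CPM in AML2 (−3.46 ± 0.28, adjusted p = 3.09e-10), and CD44, the hyaluronan receptor, was new and lower (−1.63 ± 0.23). The higher members were ITGB1 (2.07 ± 0.25) and ITGA6. ITGB2, the shared chain of the leukocyte integrins, was lost: it had 1070, 1020 and 703 CPM in AML3 and 951, 933 and 870 CPM in AML2 with JQ1, and 436 ± 63.2 against 131 ± 23.9 CPM with vehicle.

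**Figure D3:**
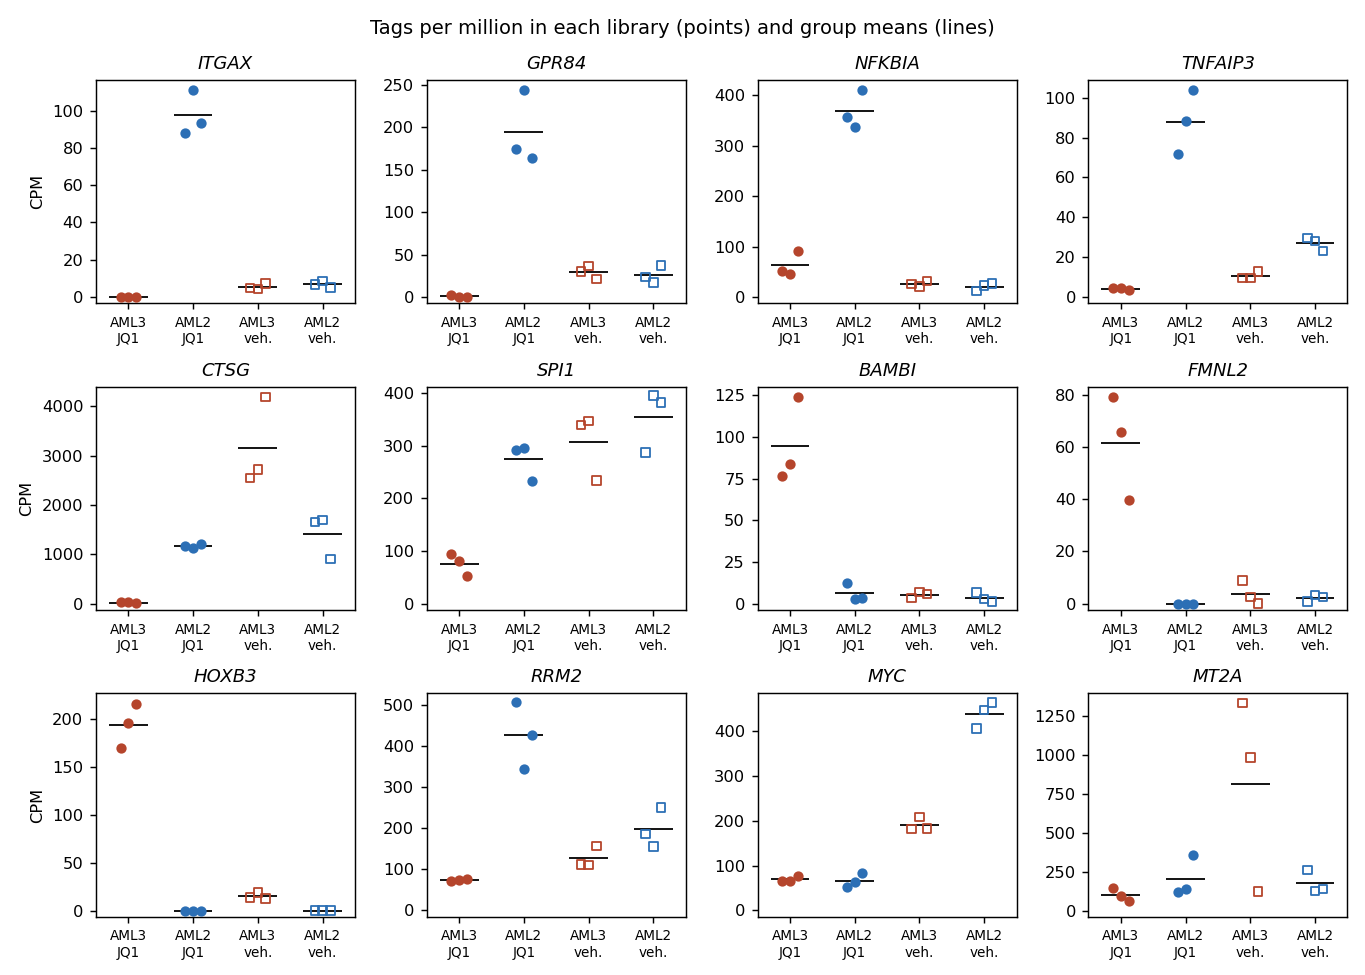
CPM of 12 genes in each library (points) with group means (lines), on linear axes, for AML3 JQ1, AML2 JQ1 (filled) and AML3 vehicle, AML2 vehicle (open). ITGAX and GPR84 are high in AML2 JQ1 alone, CTSG is low in AML3 JQ1 alone, FMNL2 and HOXB3 have no tag in AML2 JQ1, and the MYC points of the lines overlap with JQ1.

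Of 24 tested myeloid transcription factors, 12 were lower and 4 higher in AML3 with JQ1, against 2 lower and 9 higher with vehicle, and the median log2 difference was −0.48 with JQ1 and 0.50 with vehicle. Without AML3 JQ1 replicate 2 the lower count was 7. SPI1, which encodes PU.1, the master factor of myeloid cells, had 93.4, 80.3 and 52.3 CPM in AML3 JQ1 libraries and 292, 296 and 233 CPM in AML2 JQ1 libraries (−1.84 ± 0.29, adjusted p = 1.71e-05). It was new, with 307 ± 63 CPM in AML3 and 355 ± 58.9 CPM in AML2 with vehicle. IKZF1, the lymphoid and myeloid factor Ikaros, was new as well, at 23.1, 30.6 and 23.4 CPM in AML3 and 145, 123 and 178 CPM in AML2 (−2.50 ± 0.23), as was the repressor gene GFI1 (−1.64 ± 0.21).
RUNX2, a Runt-domain factor, was retained and wider with JQ1, with 41.8, 35.9 and 57.7 CPM in AML3 and 742, 807 and 614 CPM in AML2 (−4.02 ± 0.32 with JQ1 and −2.22 with vehicle). CEBPA, CEBPB and RUNX3 were reversed, and CEBPA had 340, 272 and 258 CPM in AML3 and 386, 583 and 483 CPM in AML2 with JQ1, against 613 and 349 CPM on average with vehicle. The JQ1 difference of CEBPA was −0.74 ± 0.27 (adjusted p = 0.0313), and its highest adjusted p over the alternatives was 0.152. ID1, an inhibitor of helix-loop-helix factors, was higher by 4.74 ± 0.44.

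Granule and monocyte genes differed in both directions. CTSG, the neutrophil protease cathepsin G (chromosome 14, 24573522 to 24576260, minus strand), had 34.7, 26.4 and 5.41 CPM in AML3 JQ1 libraries and 1160, 1120 and 1210 CPM in AML2 JQ1 libraries. AML3 was lower (−5.61 ± 0.49, adjusted p = 1.32e-09). With vehicle AML3 was the higher line, at 3150 ± 901 CPM against 1420 ± 444 CPM (1.15, adjusted p = 0.0314), so CTSG was reversed. CFD, complement factor D, was retained in the higher direction (3070, 2610 and 1140 CPM in AML3 and 140, 103 and 132 CPM in AML2, 4.18 ± 0.42), and the elastase gene ELANE likewise (4.97 ± 0.64). SRGN, the proteoglycan that packs granules, was new and lower in AML3 (191, 202 and 101 CPM against 1290, 1040 and 1620 CPM).
Of 17 tested monocyte and macrophage genes, 8 were lower and 4 higher in AML3 with JQ1, and 4 lower and 8 higher with vehicle. S100A9 and S100A8, the subunits of calprotectin, were among the lower ones, with S100A9 at 63.1, 50.7 and 123 CPM in AML3 and 3230, 3060 and 5070 CPM in AML2 (−5.61 ± 0.64, adjusted p = 1.19e-07). TYROBP, the adaptor DAP12 of activating receptors, had 50.7, 28.5 and 23.4 CPM in AML3 and 883, 870 and 753 CPM in AML2 (−4.56 ± 0.31), and its difference with vehicle was −1.26. The Fc receptor gene FCGR2A was reversed (8.32 against 30.2 CPM with JQ1 and 81 against 26.4 CPM with vehicle), and so was CD68. VCAN, which encodes versican, was present in AML3 alone (at least 27.2-fold). CD14 and ITGAM were too low to be tested, and MPO is not among the listed genes.

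Cytokine receptors were lower in AML3 at 11 and higher at 4 of 20 tested members with JQ1, against 2 lower and 5 higher with vehicle. The higher count was 1 without AML2 JQ1 replicate 1 and 2 without AML2 JQ1 replicate 2. IL17RA, the interleukin-17 receptor chain, was new, with 72, 72.9 and 30.7 CPM in AML3 and 855, 830 and 1050 CPM in AML2 (−3.92 ± 0.37, adjusted p = 4.31e-09). FLT3, the receptor kinase of early myeloid cells, had 28.5, 24.3 and 41.5 CPM in AML3 and 305, 277 and 273 CPM in AML2 (−3.22 ± 0.26 with JQ1 and −1.24 with vehicle). Of 13 listed class II antigen presentation genes 3 could be tested, and these 3 were lower in AML3 both with JQ1 and with vehicle. CD74, the invariant chain, had 24.9, 24.3 and 10.8 CPM in AML3 and 491, 424 and 250 CPM in AML2 (−4.21 ± 0.35), and HLA-DRB1 and HLA-DRA had no tag in AML3, the highest adjusted p of HLA-DRA over the alternatives being 0.0808. Of 12 class I genes, 4 were lower and 1 higher, against 17.2% and 20.1% of all tested genes. HLA genes have similar copies and their values are uncertain. Of 14 interferon response genes, 6 were higher and 2 lower in AML3, against 20.1% and 17.2% of all tested genes. They included BST2 (2.34 ± 0.40), which was retained, and IFI6 (−2.12 ± 0.25), which was new. The count of 6 higher was 3 without AML3 JQ1 replicate 3 and also without AML2 JQ1 replicate 1.

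New differences in which AML3 was the higher line were led by FMNL2, a formin that builds actin filaments (chromosome 2, 152335237 to 152649834, plus strand). FMNL2 had 79.1, 65.5 and 39.7 CPM in AML3 JQ1 libraries and no tag in AML2 JQ1 libraries, at least 56.6-fold higher (adjusted p = 2.69e-08). With vehicle its means were 3.8 CPM in AML3 and 2.22 CPM in AML2. BAMBI, a decoy receptor that dampens TGF-β signalling, had 76.5, 83.5 and 124 CPM in AML3 and 12.6, 2.64 and 3.53 CPM in AML2 (3.87 ± 0.37, adjusted p = 5.84e-09), against 5.37 and 3.58 CPM with vehicle. IRS1, the insulin receptor substrate, had 26.7, 25.4 and 28.9 CPM in AML3 and 3 tags in all in AML2 (ratio 22.9, interval 7.52 to 114), and ZDHHC21, a palmitoyl transferase, was at least 19.3-fold higher. SOBP and L3MBTL1 completed the 6 largest, and the change in their line difference did not pass without AML2 JQ1 replicate 1.
In 124 of the 178 new genes that were higher in AML3, the AML3 mean with JQ1 was at least 2-fold above its mean with vehicle while the AML2 mean was not 2-fold below. For these folds 1 CPM was added to each mean, which shrinks the folds of genes with few CPM. In 26 the AML2 mean was at least 2-fold lower while the AML3 mean was not 2-fold higher. In 10 both held and in 18 neither. Of the 224 new genes that were lower in AML3, 112 had an AML3 mean at least 2-fold lower, without a 2-fold rise in AML2. In 58 the AML2 mean was at least 2-fold higher without a 2-fold fall in AML3, both held in 21 and neither in 33. Moves of the other line in the same direction were not counted. ITGAX is of the kind where both held, NFKBIA of the kind where AML2 was higher with JQ1, and SPI1 of the kind where AML3 was lower. NFKBIA also rose in AML3, from a mean of 25.9 CPM with vehicle to 62.4 CPM with JQ1.

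Differences lost with JQ1 included MYC, the growth regulator that BET inhibitors are known to lower. MYC had 65.8, 65.5 and 77.6 CPM in AML3 JQ1 libraries and 52.5, 62.6 and 84.7 CPM in AML2 JQ1 libraries, and the lines overlapped (0.07 ± 0.25, adjusted p = 0.84). With vehicle MYC averaged 191 ± 15.6 CPM in AML3 and 439 ± 29.6 CPM in AML2 (−1.20, adjusted p = 0.000168). The change in the difference was 1.27 ± 0.33 (adjusted p = 0.0166) and did not pass without AML2 JQ1 replicate 1 or replicate 2. KLF2, a factor of quiescent cells, had 54.2, 42.3 and 114 CPM in AML3 and 68.5, 93.4 and 70.6 CPM in AML2 with JQ1 (−0.23 ± 0.28), against 25.2 ± 2.72 and 1.78 ± 0.739 CPM with vehicle (3.87). FCGRT, the neonatal Fc receptor, and CPPED1 lost a higher level in AML3, with FCGRT at 5.94 against 4.75 CPM with JQ1 and 45.3 against 3.97 CPM with vehicle. CD86, a costimulatory ligand, had 13.3, 18 and 14.4 CPM in AML3 and 2.28, 7.93 and 8.82 CPM in AML2 (1.28 ± 0.54, adjusted p = 0.0625). CD86 did not overlap between the lines and passed with the replicate block (1.27, adjusted p = 0.0473). PKIB, an inhibitor of protein kinase A, VAT1L, APBB2 and MEF2C-AS1 lost a lower level in AML3, with VAT1L at 19.5 against 25.7 CPM with JQ1 and 10.7 against 135 CPM with vehicle. With OTX015, MEF2C-AS1 (−3.095, adjusted p = 0.00016) and VAT1L (−1.692, adjusted p = 0.0102) were lower in AML3, while PKIB and APBB2 did not pass. For none of these genes did the line difference with OTX015 minus that with JQ1 pass.
Metallothioneins, small metal-binding proteins, lost most of their difference. Of 8 tested genes of metal handling, 6 were higher in AML3 with vehicle and 1 with JQ1, MT1G. MT2A had 144, 90.9 and 59.5 CPM in AML3 and 118, 137 and 353 CPM in AML2 with JQ1, so the lines overlapped, against 810 ± 619 and 173 ± 74.8 CPM with vehicle. MT1E, MT1F, MT1X and MT2A were lost, and MT1A had no tag in either line with JQ1.

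Among the 61 reversed genes, 35 were lower and 26 higher in AML3 with JQ1. LSP1, an actin-binding protein of leukocytes, had 11.6, 11.6 and 10.8 CPM in AML3 JQ1 libraries and 51.4, 39.7 and 19.4 CPM in AML2 JQ1 libraries (−1.73 ± 0.32, adjusted p = 9.75e-05). With vehicle it averaged 125 ± 5.26 CPM in AML3 and 32.4 ± 6.19 CPM in AML2 (1.91). MMP9, the gelatinase of migrating leukocytes, had 18.7, 15.9 and 3.61 CPM in AML3 and 131, 95.2 and 138 CPM in AML2 with JQ1 (−3.08 ± 0.51), against 91.5, 94.3 and 8.51 CPM in AML3 and 4.21, 11.4 and 25.6 CPM in AML2 with vehicle (2.46). The MMP9 vehicle libraries overlap, and AML3 vehicle replicate 3 lies below 2 of the 3 AML2 ones. XAGE1A, a cancer-testis antigen gene, was −2.27 ± 0.40 with JQ1 and 1.56 with vehicle. Other matrix genes differed in both directions. Of 19 tested in that list, 8 were higher and 6 lower in AML3 with JQ1, against 20.1% and 17.2% of all tested genes. ADAM8, a leukocyte metalloproteinase, had no tag in AML3 and 146, 160 and 134 CPM in AML2 (at least 131-fold lower), and the galectin gene LGALS1 was new and lower (338, 314 and 653 CPM against 2950, 2130 and 3000 CPM).

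Among 23 tested BET genes and genes of the elongation machinery that BET proteins serve, AML3 was higher at 7 and lower at 1 with JQ1. Over all tested genes 20.1% were higher and 17.2% lower. The higher count was 3 without AML3 JQ1 replicate 3 or AML2 JQ1 replicate 1, 1 without AML2 JQ1 replicate 2 and 4 with replicates 1 and 2 alone. HEXIM1, which holds the elongation kinase P-TEFb inactive and is a known marker of BET inhibition, had 248, 249 and 637 CPM in AML3 and 110, 114 and 228 CPM in AML2. The groups did not overlap, and the difference was 1.34 ± 0.42 (adjusted p = 0.015). AML3 JQ1 replicate 3 was far above the other two, and without it the adjusted p was 0.132; HEXIM1 also did not pass without AML2 JQ1 replicate 1 or 2. MEPCE, which caps the 7SK RNA of the same complex, was retained (333, 352 and 418 CPM against 93.6, 99.6 and 131 CPM, 1.77 ± 0.27). The elongation factor gene ELL was higher by 1.03 ± 0.31, and did not pass without AML2 JQ1 replicate 1 or 2. BRD2 did not pass (0.35 ± 0.30), and BRD3, at 61.4, 52.8 and 43.3 CPM in AML3 and 84.5, 70.5 and 77.6 CPM in AML2, passed with the replicate block alone among the fits of all libraries (−0.54, adjusted p = 0.0375; −0.53 and 0.0545 without it). Of 9 tested markers of BET inhibition, 3 were higher and 1 lower, among them ZCCHC24 (61.4, 59.2 and 99.2 CPM against 17.1, 16.7 and 8.82 CPM, 2.25 ± 0.29). ZCCHC24 was retained, with 16.1 against 3.12 CPM with vehicle, and the change in its difference did not pass (−0.14, adjusted p = 0.908). SERPINI1, another such marker, did not pass (26.5 against 20.9 CPM).

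In the following lists the shares are to be read against 20.1% higher and 17.2% lower over all tested genes, and most were near them. Of 12 BCL2 family genes, 3 were higher and 3 lower in AML3 with JQ1. The higher count of 3 was 1 without AML3 JQ1 replicate 3, AML2 JQ1 replicate 1 or AML2 JQ1 replicate 2. BCL2A1, an antiapoptotic NF-κB target, was new and lower (5.34, 6.34 and 1.8 CPM in AML3 and 37.7, 42.3 and 67 CPM in AML2, −3.24 ± 0.51), and BCL2 was lower (−1.38 ± 0.37). BCL2L11, which encodes the killer protein BIM, was higher (86.3, 71.9 and 128 CPM against 46.8, 20.3 and 12.3 CPM, 1.77 ± 0.32). Of 22 p53 targets, 5 were higher and 2 lower, with the mitochondrial reductase gene FDXR higher (39.1, 35.9 and 46.9 CPM in AML3 and 10.3, 6.17 and 15.9 CPM in AML2) and the antiproliferative gene BTG2 new and lower (−2.80 ± 0.45). The 5 higher were 1 without AML2 JQ1 replicate 1 and 2 without AML2 JQ1 replicate 2. Of 23 AP-1 and immediate early genes, 5 were higher and 5 lower, and 9 and 7 with the replicate block. Without AML2 JQ1 replicate 1 the higher count was 2, and without AML2 JQ1 replicate 3 it was 9. FOSB was new and higher (60.5, 66.6 and 130 CPM against 7.99, 7.93 and 24.7 CPM), while the phosphatase genes DUSP6 (−3.02 ± 0.26) and DUSP2, which dampen MAP kinases, were lower. Of 23 cholesterol synthesis genes, 6 were higher and 4 lower, and the higher count was 2 without AML2 JQ1 replicate 1 and 3 without AML2 JQ1 replicate 2. HMGCS1, which makes HMG-CoA, was new and higher (47.1, 58.1 and 70.3 CPM against 18.3, 12.3 and 22.9 CPM, 1.75 ± 0.33), and TM7SF2, a sterol reductase, was retained (3.88 ± 0.42). The proto-oncogenes CDK6 and MYB differed less firmly. CDK6 (1.16 ± 0.45, adjusted p = 0.044) had 60.5, 80.3 and 278 CPM in AML3 and 59.4, 41.4 and 82.9 CPM in AML2, which overlap, and without AML3 JQ1 replicate 3 the difference was 0.25 (adjusted p = 0.656). CDK6 also did not pass without AML2 JQ1 replicate 1 or 2, or by DESeq2. MYB was lower (−0.91 ± 0.30, adjusted p = 0.0201, and 0.0998 without AML3 JQ1 replicate 2).

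At the level of single start regions, 4701 of 12867 tested promoters differed with JQ1 (36.5%), 2529 higher (19.7%) and 2172 lower (16.9%) in AML3. The change from vehicle passed at 5.55% of promoters, 2.25% positive and 3.3% negative. Of the 4701, 1692 were retained, 421 new and 63 reversed, and 142 were lost. Neighbouring promoters on the same strand with starts within 20000 bases, of which 1 was higher and 1 lower in AML3, formed 170 pairs (64 within 5000 bases), and 32 of the pairs lay within 28 genes whose counts matched the sum of their promoters. The 170 include pairs on the mitochondrial chromosome, and a region can stand in several pairs, so they are not separate cases. The genes below were chosen from those 28 after their values were seen, and positions are in hg19 as the names give them. EIF4A3, a helicase of the exon junction complex (chromosome 17, minus strand), has start regions at 78120917 to 78120934 and 78120897 to 78120913, which begin 20 bases apart. The first had 207, 181 and 292 CPM in AML3 JQ1 libraries and 58.4, 53.4 and 62.2 CPM in AML2 JQ1 libraries (1.96 ± 0.27, adjusted p = 1.41e-06). The second had 11.8, 16.1 and 29.7 CPM in AML3 and 47, 51.6 and 92.4 CPM in AML2 (−1.80 ± 0.32, adjusted p = 5.75e-05), and both were retained.
MCM7, whose total did not differ, had 1 start region with 24.4, 26.8 and 24.2 CPM in AML3 and 0, 4.45 and 7.11 CPM in AML2 (2.79 ± 0.51). Another, whose start lies 819 bases away, had 30.7, 41.8 and 16.7 CPM in AML3 and 83.7, 57.8 and 60.4 CPM in AML2 (−1.12 ± 0.29, adjusted p = 0.00288). The total for the gene thus combined start regions that differed in opposite directions. C6orf120 had a pair 72 bases apart, of which 1 was new and higher (32.5, 39.7 and 79.9 CPM in AML3 and 1.15, 2.67 and 1.78 CPM in AML2, 4.54 ± 0.48), while the other was lower in AML3 (−1.02 ± 0.37). OSBPL8, a lipid transfer protein, had a pair 89 bases apart at 1.34 ± 0.37 and −1.63 ± 0.29, and the uridine kinase gene UCK2 a pair 213 bases apart at 0.76 ± 0.24 and −1.97 ± 0.38.

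**Figure D4:**
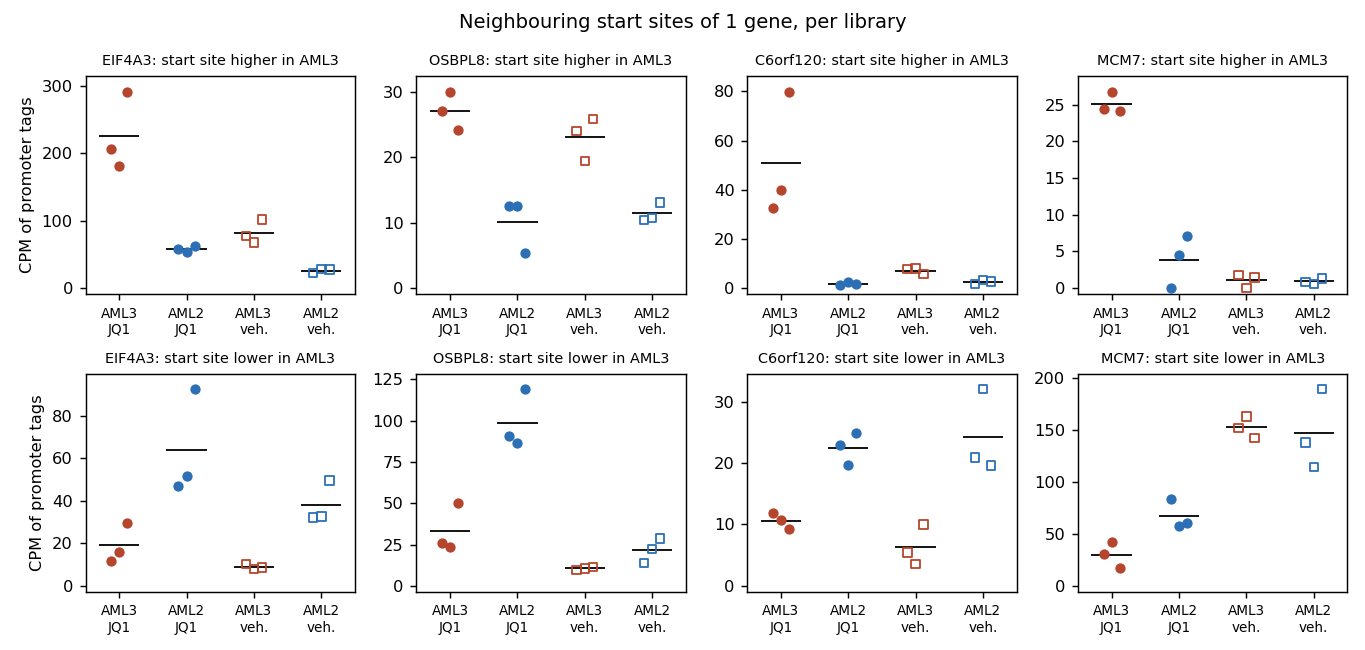
CPM of promoter tags in each library (points) with group means (lines) for a start region higher in AML3 (top) and a neighbouring one of the same gene lower in AML3 (bottom), in AML3 JQ1, AML2 JQ1 (filled), AML3 vehicle and AML2 vehicle (open). In EIF4A3 the top start lies at 181 to 292 CPM in AML3 JQ1 and 53.4 to 62.2 CPM in AML2 JQ1, and the bottom start is higher in AML2.

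Among promoters not matched to a gene named above, the largest differences were again of the on and off kind. Matching was by counts and hg19 sites were not annotated, so an unmatched promoter may still belong to a gene named above. A start region of YPEL3, a growth-suppressing p53 target (hg19 chromosome 16, 30107516 to 30107569, minus strand), averaged 172 CPM in AML3 and had no tag in AML2 (at least 149-fold higher), and a start region of PLD3, a lysosomal nuclease (chromosome 19, 40871734 to 40871809, plus strand), was at least 121-fold higher. The other 2 named promoters that were higher belong to HIST3H2BB (at least 169-fold) and to no matched gene on chromosome 10 (28034739 to 28034756, at least 124-fold). Lower in AML3 was an unmatched promoter on chromosome 6 (hg19, 45296048 to 45296082, plus strand), with no tag in AML3 and 612 CPM in AML2 (at least 539-fold lower). Another on the same chromosome (31554456 to 31554512, plus strand) had no tag in AML3 and 169 CPM in AML2 with JQ1, against 5.25 and 32.6 CPM with vehicle. Unmatched promoters on chromosome 5 (134735568 to 134735584) and chromosome 12 (9891753 to 9891758) had no tag in AML3 and were at least 189-fold and 129-fold lower.

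Active enhancers are transcribed in both directions into short RNAs, whose tags are used as a measure of enhancer activity. Enhancer tags were 7339, 7113 and 14060 per 1000000 promoter tags in AML3 JQ1 libraries and 4797, 4297 and 5670 in AML2 JQ1 libraries, so that each AML3 library lay above each AML2 library. The difference of means was 4581 on this scale (two-sided exact permutation p = 0.1, the smallest that 3 against 3 can give), and 2304 without AML3 JQ1 replicate 3. With vehicle the values were 3319, 3181 and 2871 in AML3 and 2374, 2699 and 2183 in AML2.
Of 849 tested enhancers, 270 differed with JQ1 (31.8%), 188 higher (22.1%) and 82 lower (9.66%) in AML3 when scaled by the promoter library. With vehicle 8.01% were higher and 4.59% lower, and with OTX015 20.5% and 7.18%. Scaled by the enhancers' own totals, 121 were higher and 116 lower. The median enhancer difference was 0.80 on the log2 scale by the promoter library and 0.31 by the enhancers' own totals with JQ1, against 0.09 and 0.01 with vehicle. The 270 became 166 without AML2 JQ1 replicate 2 and 109 by DESeq2. There were 65 retained enhancers, 5 new, 1 reversed and 0 lost ones. An enhancer was tested if any 3 libraries had at least 3 tags, so members could enter through the group where they were high. How far this shaped the counts and medians was not tested.

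**Figure D5:**
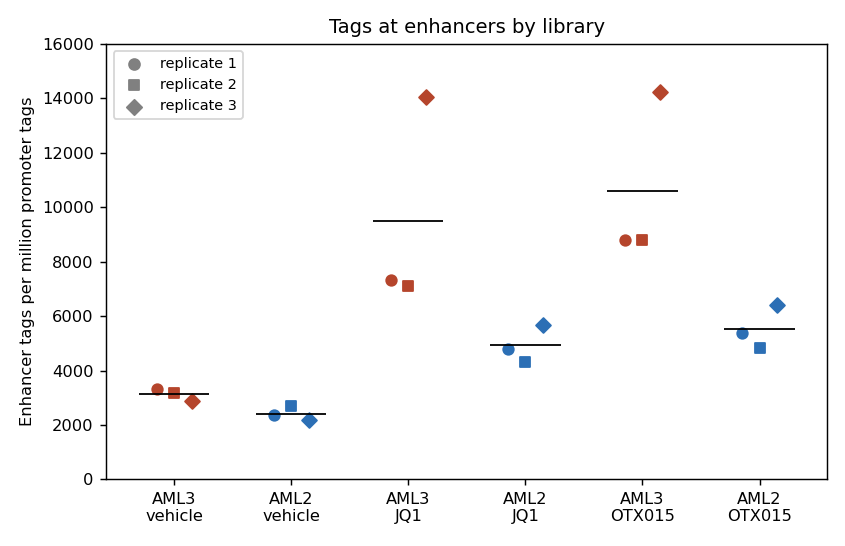
Enhancer tags per 1000000 promoter tags in each library (marker shape gives the replicate number) with group means (lines), for AML3 and AML2 with vehicle, JQ1 and OTX015. AML3 lies above AML2 in every treatment, and replicate 3 of AML3 is the highest point with JQ1 (14060) and with OTX015.

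An enhancer at hg38 chromosome 17, 81387147 to 81387524, in no annotated gene and 8140 bases from the BAHCC1 start, had 73, 65 and 53 tags in AML3 JQ1 libraries and none in AML2 (at least 63.2-fold higher, adjusted p = 1.21e-22). A second, in an intron of BAHCC1 at 81397335 to 81397793, had 42, 23 and 4 tags in AML3 and none in AML2 (at least 22.8-fold). An enhancer on hg19 chromosome 17 (79368790 to 79369424) had 204, 148 and 97 tags in AML3 and 0, 1 and 0 in AML2 (ratio of AML3 to AML2 446, interval 79.6 to 17700). Enhancers on hg38 chromosome 7 (25856944 to 25857461) and hg19 chromosome 16 (89268043 to 89268411) had no tag in AML2 and were at least 23.2-fold and 18.9-fold higher in AML3. Lower in AML3, at positions in hg38, were an enhancer 2255 bases from the start of WRNIP1 (chromosome 6, 2763016 to 2763302), with no tag in AML3 and 39, 56 and 13 tags in AML2, and one over an exon of BCL11A, a factor of lymphoid and erythroid cells, 92 bases from its annotated start (chromosome 2, 60554420 to 60555705), with no tag in AML3 and 25, 31 and 6 tags in AML2. An enhancer in an intron of PRAM1, a myeloid adaptor gene (chromosome 19, 8500051 to 8500446), had 1, 0 and 0 tags in AML3 and 71, 95 and 58 in AML2 (ratio of AML2 to AML3 226, interval 40.1 to 8950). An enhancer in an intron of TTC39A (chromosome 1, 51303775 to 51304355) and one 8773 bases from the start of SPAG6 (chromosome 10, 22336246 to 22337099) had no tag in AML3 and were at least 25.2-fold and 13.4-fold lower.
The difference between lines changed from vehicle to JQ1 at 6 enhancers (0.707%), of which 1 lies over an exon of MYO1F, a myosin of neutrophils (chromosome 19, 8576584 to 8576951), with 3, 0 and 0 tags in AML3 and 24, 36 and 20 in AML2 with JQ1, against 2, 2 and 2 and 0, 4 and 1 with vehicle (change −4.98, adjusted p = 0.024). Low tag counts limit what single enhancers can show, and those with 0 tags in 1 line in both conditions could not pass the test of change.

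With OTX015 in place of JQ1, 1897 genes were higher and 1824 lower in AML3 (37.1%), from other libraries than those of the JQ1 comparison. Of the JQ1 differences, 2859 were called the same way with OTX015, 76.3% of the JQ1 list and 76.8% of the OTX015 list, and 0 in the opposite direction. The line difference with OTX015 minus that with JQ1 passed for 0 of 10031 genes in edgeR (218 at an unadjusted p under 0.05) and for 0 in DESeq2 (127), which does not show that the compounds act alike. Side by side, the ITGAX means were 0 against 81.9 CPM with OTX015 and 0 against 97.5 CPM with JQ1, those of CTSG 14.6 against 749 and 22.2 against 1160 CPM, those of NFKBIA 67.5 against 430 and 62.4 against 368 CPM, and those of HOXB3 201 against 0 and 194 against 0 CPM, AML3 against AML2 each time. HEXIM1 was 410 against 321 CPM with OTX015, which did not pass (0.36, adjusted p = 0.522), and MYC was 76.3 against 50.3 CPM (0.65, adjusted p = 0.049).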

How the data were processed

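The authors deposited counts of CAGE tags per gene symbol (14079), promoter (42133) and enhancer (3863), whole numbers that were not normalized. Per the submitters' processing notes STAR and hg38 were used; for versions, enhancer definition and counting: not given in the sources used here. Counts were fitted with edgeR 4.0.16 in R 4.3.3 (quasi-likelihood test, TMM, filterByExpr, 1 mean per group over all 18 libraries, 12 residual degrees of freedom), leaving 10031 genes and 12867 promoters. For enhancers, 849 were kept by a minimum of 3 tags in 3 libraries and scaled by promoter library sizes. Contrasts were AML3 minus AML2 with JQ1, vehicle and OTX015, and the differences between these. Benjamini-Hochberg adjusted p-values are two-sided, a call is an adjusted p under 0.05, and levels are CPM with mean ± SD over 3 libraries. Log2 differences carry their SE. Against 0 tags a fold is a bound, the group total being set to 3 tags, and against 1 to 3 tags a ratio with its 95% interval; both cover counting error only. The script was tested on simulated data. DESeq2 1.42.0, other scalings and filters, the 6 JQ1 libraries alone and libraries left out were alternatives.

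Promoter names carry hg19 (41307) or hg38 (826) positions. Enhancer names without a build were read as hg38, since 28.5% lay within 2000 bases of a GRCh38 gene start against 11.4% after a shift of 50000 bases; hg19 sites were not annotated. Gene positions are GENCODE release 29, coordinates are printed as the tables write them, and a promoter was given a gene where summed counts of up to 8 neighbours equalled the gene's in all libraries (10227 genes). Near-identical gene copies and overlapping genes on the same strand can share tags.

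The members, the 27 gene lists and the naming rule were chosen with earlier results of these data known. The rule took genes without overlap between the 3 and 3 libraries and with at least 10 CPM: the 6 largest retained and 6 largest new differences each way, 4 lost each way, 4 reversed, up to 2 per list, and 15 fixed genes. Likewise the 4 largest promoters and 5 largest enhancers each way were named. 1 Y-linked gene it took is not described, and some named list members were chosen as examples after their values were seen. Replicate numbers are shared between groups. Deviations from group means of same-numbered AML3 and AML2 JQ1 libraries correlated at 0.12, 0.11 and 0.25 (10031 genes), each above a limit of 0.1 set for every pair. The numbers entered an alternative fit as a block. The main fit and its p-values had no replicate term. Differently numbered libraries 1 and 2 correlated at 0.12 and 0.16, so the numbers set replicate 3 apart and do not tell 1 and 2 apart, and the labels state no pairing.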

Additional observations from a re-analysis of the deposited data

Results flagged for a closer look

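The results below are those for which the log2 difference AML3 minus AML2 changed between JQ1 and vehicle by the edgeR test of that change itself (adjusted p under 0.05). Each value is the fitted difference with JQ1 minus the fitted difference with vehicle. Where a group had 0 to 3 tags the fitted value depends on the prior count and is no bound, and no explanation was tested for any of them.

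Among genes that became higher in AML3 with JQ1, the change was 7.91 for FMNL2, 6.44 for ZDHHC21, 4.31 for IRS1, 4.02 for L3MBTL1, 3.67 for SOBP, 3.41 for BAMBI and 2.34 for HMGCS1. FMNL2 and ZDHHC21 had no tag in AML2 JQ1 libraries.

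Surface and signalling genes that became lower in AML3 had a change of −9.06 for ITGAX, −8.08 for GPR84, −6.54 for SELPLG, −6.12 for CD82, −4.92 for DUSP2, −3.56 for IL17RA, −3.30 for TYROBP, −2.27 for CD74, −1.98 for FLT3, −1.87 for IFI6 and −1.69 for ITGAL. The repressor gene SFMBT1 changed by −5.64. NF-κB and stress genes changed by −2.95 for NFKBIA, −2.93 for TNFAIP3, −2.93 for BCL2A1 and −3.10 for BTG2. The myeloid factors changed by −2.00 for IKZF1, −1.81 for RUNX2 and −1.63 for SPI1. The cell cycle genes changed by −1.87 for RRM2, −1.74 for MCM3, −1.38 for CCNA2 and −1.29 for CENPA.

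Differences that were present with vehicle and not with JQ1 changed by −4.10 for KLF2, −4.09 for CD86, −3.35 for FCGRT and −2.88 for CPPED1, all higher in AML3 with vehicle. PKIB changed by 5.25, APBB2 by 4.57, MEF2C-AS1 by 3.95, VAT1L by 3.23 and MYC by 1.27, all lower in AML3 with vehicle.

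The reversed genes changed by −6.76 for CTSG, −5.54 for MMP9, −3.83 for XAGE1A, −3.65 for LSP1 and −3.30 for FCGR2A. All 5 were higher in AML3 with vehicle and lower with JQ1.

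The unmatched promoter on hg19 chromosome 6 (31554456 to 31554512) changed by −7.65. Of the enhancers, 1 on chromosome 1 (hg38, 31154719 to 31155112) changed by 5.61, with 20 tags in AML3 JQ1 and 1 tag in AML2 JQ1 libraries in all. The enhancer in MYO1F changed by −4.98. Another on chromosome 15 (hg38, 31266255 to 31266769) changed by −8.73, with 0 and 15 tags, and one on chromosome 2 (hg19, 106412674 to 106413002) by −8.78, with 0 and 7 tags. The 2 others, on chromosome X (hg38, 107676773 to 107677571) and chromosome 1 (hg19, 232765644 to 232766127), changed by 3.84 and 3.14, with 21 against 3 and 124 against 40 tags. The first had 2, 8 and 11 tags in the AML3 JQ1 libraries. The second overlapped between the lines with JQ1 (40.7, 21.4 and 110 CPM in AML3 and 16, 10.7 and 24.9 CPM in AML2). Over the alternatives the highest adjusted p of the JQ1 difference was 0.0951 and 0.0892 for these 2, and 0.0917 for the chromosome 2 enhancer.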

How the results depend on the processing

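Between 2861 genes (the 6 JQ1 libraries alone) and 4223 (replicate block) differed under the alternatives, against 3745, and the promoter count was between 3374 and 5476, against 4701. The count of 270 enhancers was 109 with DESeq2 and 165 with the 6 JQ1 libraries alone, and 166 to 249 when single JQ1 libraries were left out. The 402 new genes were 661 with replicates 1 and 2 of each group alone and 247 to 425 with single libraries left out. The 147 lost genes were 269 with replicates 1 and 2 alone, and the 61 reversed genes were 121 in that fit and 94 with the replicate block. The 170 pairs of start regions were 64 within 5000 bases. The line difference with OTX015 minus that with JQ1 gave 0 genes in every alternative run. The replicate block raised the calls to 4223 genes, added CD86 and BRD3 as stated, and changed no other call among the named genes.

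The median log2 difference of MHC class II genes was −4.90 with DESeq2, −4.22 with the 6 JQ1 libraries alone, −6.39 with replicates 1 and 2 alone and −6.16 to −5.22 with single libraries left out, against −5.81 (−3.14 with genes at 0 tags set to their bound). That of interferon response genes was 0.661 with the 6 libraries alone and 0.349 to 0.695 with single libraries left out, against 0.485. That of BET and elongation genes was 0.191 to 0.418 with single libraries left out, against 0.334.

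Directions that turned round all belonged to differences that had not passed. Leaving out single libraries gave −0.69 to 0.021 for KLF2, −0.53 to 0.56 for PKIB, −0.63 to 0.62 for APBB2, −0.079 to 0.22 for MYC and −0.0041 to 0.37 for HOXA9. With replicates 1 and 2 alone FCGRT was at −0.052 and APBB2 at −1.003, and APBB2 was at −0.034 with the replicate block, −0.00073 with RLE scaling and −0.0046 with no filter on low counts. The causes were not tested. Depth limits what single enhancers show, and zero-tag genes are known only to their floor.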
